A study of Arabidopsis thaliana with 27 samples.

Results

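Transcripts of 10 sugar transporter genes were followed in Arabidopsis thaliana seedlings treated with N-acylethanolamines (NAEs), fatty acid ethanolamides that arise from membrane phospholipids. The genes were taken by locus identifier from the 32833 genes in the count table: STP1 (AT1G11260), STP4 (AT3G19930), STP13 (AT5G26340), SWEET2 (AT3G14770), SWEET11 (AT3G48740), SWEET12 (AT5G23660), SWEET16 (AT3G16690), SWEET17 (AT4G15920), SUC2 (AT1G22710) and ERD6 (AT1G08930). All 10 had enough counts to be tested in every comparison. They were named by identifier and not by a measured value of these libraries, although earlier results of the same data were known when the genes were proposed.

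The seedlings were of the ecotype that the labels write as Col-O, with no transgene or mutation given, and were 3 days old. They had grown in liquid Murashige and Skoog medium with sucrose and were moved, as groups of seedlings in a dish, to medium for which the labels name no sugar. There they received 0.2% DMSO (the control), 40 µM NAE 18:2 (linoleoylethanolamide) or NAE 18:3 (linolenoylethanolamide) at 70 µM in the labels and 80 µM in the design text, for 1 h in the labels. Whole seedlings, cotyledons and roots were then collected, with 3 libraries for each of 9 groups, 27 in all. The controls thus shared the move to new medium with the treated groups, and each NAE was set against the same control libraries. The NAE doses were unequal, so compound and dose cannot be told apart in any contrast between the NAEs.

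Sugars made in leaves travel to roots as sucrose in the phloem. SWEET11 and SWEET12 are uniporters that let sucrose leave phloem parenchyma cells into the cell wall space, and SUC2 is the proton-coupled symporter that takes this sucrose up into companion cells. STP1, STP4 and STP13 are plasma membrane symporters that import glucose and other monosaccharides with protons, and the last is known for sugar uptake at sites of bacterial infection. SWEET2, SWEET16 and SWEET17 act at the tonoplast, the membrane of the vacuole, where SWEET17 carries fructose. ERD6 is the first described member of a large family of sugar transporter-like proteins and was isolated as a gene induced by early dehydration.

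In TAIR10.1 the RefSeq annotation placed SUC2 at chr1:8030587-8033156 (- strand, 4 exons), SWEET11 at chr3:18052466-18054832 (- strand, 6 exons) and SWEET12 at chr5:7971647-7973995 (- strand, 6 exons). The importers were STP1 at chr1:3777236-3780823 (+ strand, 4 exons), STP4 at chr3:6934568-6937197 (+ strand, 4 exons) and STP13 at chr5:9243398-9247540 (- strand, 4 exons). The vacuolar transporters were SWEET2 at chr3:4957334-4959704 (- strand, 6 exons), SWEET16 at chr3:5684317-5686544 (- strand, 5 exons) and SWEET17 at chr4:9030486-9033648 (- strand, 6 exons), and the last member was ERD6 at chr1:2873300-2877270 (+ strand, 17 exons). The proteins, translated from the annotated coding sequences of TAIR10.1 (RefSeq), fell into pairs and groups. SWEET11 and SWEET12 shared 86.2% of 283 aligned residues and SWEET16 and SWEET17 72.2% of 230. STP1 shared 62.8% of aligned residues with STP4 and 58.7% with STP13, whereas SWEET2 shared between 34.3% and 37.2% with the other SWEET proteins. The nearest transcript to any member by sequence was again the SWEET11 and SWEET12 pair, with 82.4% identity over 831 bases. STP1 overlaps AT1G11270 on the opposite strand by 438 bases. The libraries were made with a stranded kit, but whether counting used the strand is not stated in the sources used here, so some STP1 counts could belong to that gene.

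The 250 bases before the annotated start are shown for 5 members: the phloem-loading genes SUC2, SWEET11 and SWEET12, whose responses to NAE 18:3 differed between cotyledons and roots, and STP4 and ERD6, which rose in cotyledons. STP13 rose there too but is not shown. Sequences are from TAIR10.1, at chr1:8033157-8033406 (- strand), chr3:18054833-18055082 (- strand), chr5:7973996-7974245 (- strand), chr3:6934318-6934567 (+ strand) and chr1:2873050-2873299 (+ strand). Capitals mark matches, on either strand, to the W-box core (TTGAC), to the ABRE core of abscisic acid-responsive promoters (ACGTG) and to the sugar starvation element (TATCCA).
SUC2: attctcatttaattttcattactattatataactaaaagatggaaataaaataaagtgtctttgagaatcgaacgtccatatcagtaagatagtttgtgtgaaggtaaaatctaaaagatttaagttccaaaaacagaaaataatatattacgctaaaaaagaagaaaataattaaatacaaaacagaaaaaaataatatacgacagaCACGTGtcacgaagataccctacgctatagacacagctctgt
SWEET11: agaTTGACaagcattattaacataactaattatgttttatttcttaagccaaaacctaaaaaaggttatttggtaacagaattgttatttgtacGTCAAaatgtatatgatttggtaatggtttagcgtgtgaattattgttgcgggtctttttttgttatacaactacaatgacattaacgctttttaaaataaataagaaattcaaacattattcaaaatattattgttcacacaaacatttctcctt
SWEET12: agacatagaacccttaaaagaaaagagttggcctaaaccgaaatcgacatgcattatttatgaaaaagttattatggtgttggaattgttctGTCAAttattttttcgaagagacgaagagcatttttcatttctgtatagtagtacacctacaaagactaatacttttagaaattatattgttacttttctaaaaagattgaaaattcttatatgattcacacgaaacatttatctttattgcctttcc
STP4: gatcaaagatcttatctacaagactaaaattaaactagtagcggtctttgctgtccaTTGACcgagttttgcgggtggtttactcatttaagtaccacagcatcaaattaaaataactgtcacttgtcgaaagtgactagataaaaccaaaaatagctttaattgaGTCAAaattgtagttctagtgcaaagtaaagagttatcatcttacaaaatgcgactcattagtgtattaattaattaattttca
ERD6: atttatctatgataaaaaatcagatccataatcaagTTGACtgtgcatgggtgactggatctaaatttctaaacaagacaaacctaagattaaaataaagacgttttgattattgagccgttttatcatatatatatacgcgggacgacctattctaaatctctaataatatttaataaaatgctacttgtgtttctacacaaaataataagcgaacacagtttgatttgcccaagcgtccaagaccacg

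The W-box core TTGAC lay in the windows of 5 of the 10 members (STP4, SWEET2, SWEET11, SWEET12 and ERD6), and in 44.9% of the windows of the same length before 27443 genes. Among its longer forms, which overlap the core, TTGACC (12.2% of all windows) was found in STP4 and TTGACT (19.1%) in STP4 and ERD6. The ABRE core ACGTG (22.9%) occurred among the members only in SUC2, inside the palindromic G-box CACGTG (6.49%). TATCCA (13.6%) was found in STP1 and SWEET17, while GCCGCC (1.87%) and TGGGCC (13.7%) were found in none. A match of letters is a description of the window and says nothing of binding.

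Depth ran from 17781269 to 38635934 counts per library. Levels are given as CPM, the count scaled to library size with trimmed mean of M-values (TMM) factors over all 27 libraries. In the DMSO groups organ markers matched the labels: summed CPM of 6 photosynthesis genes was 46720 to 57620 in DMSO cotyledons and 27.8 to 40.1 in DMSO roots. In NAE 18:3 roots the sum was 59.9, 31.7 and 658 in replicates 1, 2 and 3, so replicate 3 stood apart. Summed CPM of 6 root markers was 303 to 482 in DMSO roots and 66.9 to 101 in DMSO cotyledons, although 1 of them, SCR, did not separate these organs (log2 -0.32). In NAE 18:3 roots the root marker sum was 74.4 to 83.3, inside the range of DMSO cotyledons. In the cotyledon fits COBL9, RHD6, EXPA7 and CASP1 had too few counts to be tested. SCR differed little between NAE 18:3 and DMSO roots (log2 -0.26). Genes with root-enriched transcripts, chosen from the DMSO roots and cotyledons themselves, took 6.5% to 8.3% of CPM in NAE 18:3 roots. Their share was 0.56% to 0.69% in DMSO cotyledons and 11.2% to 14.1% in DMSO roots. In whole seedlings, NAE 18:2 replicates 1 and 3 differed little (a chi-square of 1.871 per degree of freedom, against at least 9.893 for every other pair of replicates), still above sampling noise.

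Under DMSO the members were distributed unevenly between the organs. With levels set per kb of transcript so that genes can be compared, the mean ERD6 level came first in both organs, at 46.2 CPM per kb (lowest 42.1, highest 49.3) in cotyledons and 83.9 (69.1 to 100) in roots. In cotyledons SWEET11 (41.4 CPM per kb) and STP4 (33.4) followed, and the ranges of these leading genes overlapped from one to the next. SWEET2, SWEET17, STP1, SWEET12 and SUC2 formed a middle group whose levels, 12.7 down to 10.6 CPM per kb, were not separated by their ranges. STP13 (6.27) and SWEET16 (1.36) were lower, each without overlap with its neighbour.

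The order in DMSO roots was different. STP4 (73.3 CPM per kb), STP13 (51.7), STP1 (46.3) and SWEET17 (25.6) followed ERD6, whose range overlapped that of STP4 (60.4 to 80.5), and SUC2 (13.2), SWEET12 (11.8), SWEET16 (9.95), SWEET11 (4.55) and SWEET2 (3.41) came last, with overlapping ranges between each of these neighbours. Against cotyledons, 5 of the 10 members were significantly higher in roots, where 20.0% of 21643 genes were called higher, and 2 were lower, where 22.4% were. A call here and below means a Benjamini-Hochberg adjusted p under 0.01 over every gene tested, from the quasi-likelihood F-test in edgeR, and an absolute log2 fold change over 1. STP13 had the highest root to cotyledon ratio among the members, 133 ± 12.6 CPM in roots (SD, n = 3) against 16.2 ± 3.04 in cotyledons, a log2 fold change of 3.05 (SE 0.43, adjusted p = 1.79e-06). SWEET16 (log2 2.88), STP1 (1.97), STP4 (1.14) and SWEET17 (1.07) were the others higher in roots, and without DMSO cotyledons replicate 3 the SWEET17 value was 0.86, under the fold threshold. SWEET11 was lower in roots by 3.17 and SWEET2 by 1.89 on the log2 scale. In bulk tissue, fewer cells of a type and less RNA per cell cannot be told apart.

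**Figure D1:**
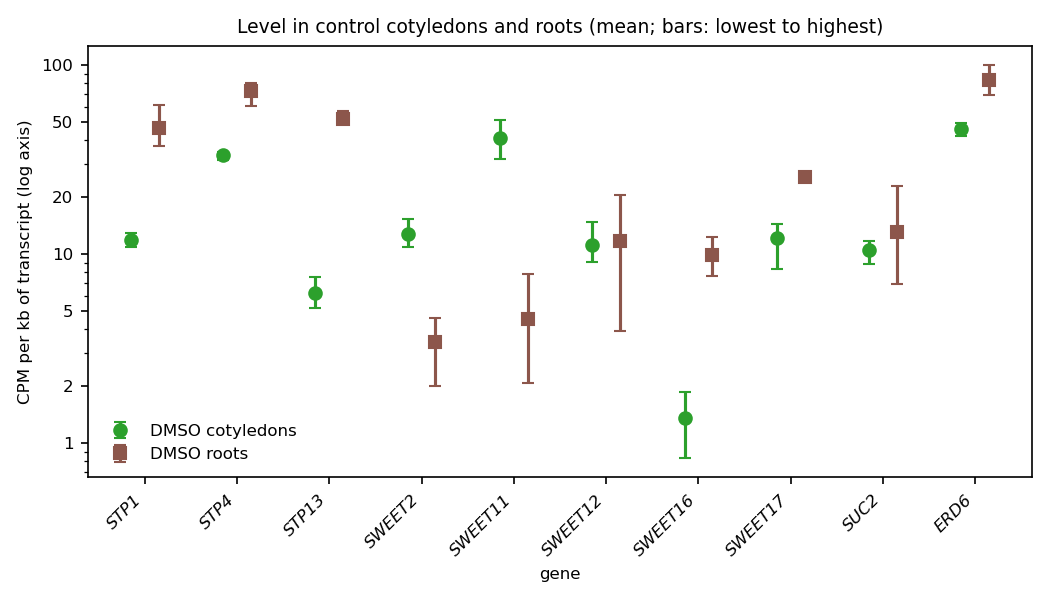
Level of each gene in DMSO cotyledons (circles) and DMSO roots (squares) as CPM per kb of transcript on a log axis, with the mean of 3 libraries and bars from the lowest to the highest library. STP13 and SWEET16 stand far higher in roots, SWEET11 far lower, and SUC2 and SWEET12 overlap between the organs.

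Of the phloem-loading genes, SUC2 rose in cotyledons under both NAEs and SWEET12 under NAE 18:3. SUC2 transcripts were at 24.0, 18.2 and 22.6 CPM in the DMSO cotyledon libraries, at 44.2, 48.3 and 52.8 under NAE 18:2 and at 77.1, 75.4 and 83.1 under NAE 18:3. The 3 groups did not overlap. SUC2 rose significantly by 1.18 on the log2 scale under NAE 18:2 (SE 0.11, adjusted p = 0.00287) and by 1.85 under NAE 18:3 (SE 0.12, adjusted p = 1.32e-05). The NAE 18:2 call was lost without DMSO cotyledons replicate 2 or NAE 18:2 cotyledons replicate 3, when the adjusted p reached 0.0123. SWEET12 stood at 20.0, 12.9 and 12.3 CPM in DMSO cotyledons, 23.0, 17.9 and 19.6 under NAE 18:2 and 30.4, 30.0 and 30.5 under NAE 18:3, where every library lay above the DMSO libraries. Its log2 fold change under NAE 18:3 was 1.00 (SE 0.18, adjusted p = 0.00274), just past the fold threshold, and leaving out any 1 library other than DMSO cotyledons replicate 1 put it back under a threshold (values from 0.89, against 1.26 without that control library). SWEET11, the partner of SWEET12 in sucrose export, was at 71.4, 56.3 and 44.5 CPM under DMSO and 78.1, 87.3 and 78.6 under NAE 18:3, a log2 value of 0.50 (adjusted p = 0.0331) that was not called. Under NAE 18:2 the values were 0.44 for SWEET12 (adjusted p = 0.161) and 0.26 for SWEET11 (0.32).

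The monosaccharide importers STP13 and STP4 rose in cotyledons under NAE 18:3 and were not called under NAE 18:2. STP13 was at 15.7, 13.4 and 19.4 CPM under DMSO, 26.5, 12.9 and 27.6 under NAE 18:2 and 88.3, 76.7 and 70.7 under NAE 18:3. Every NAE 18:3 library and 2 of the 3 NAE 18:2 libraries lay above the control range, and STP13 rose 4.83-fold under NAE 18:3 (log2 2.27, SE 0.27, adjusted p = 0.000308). STP4 was at 80.6, 75.2 and 83.1 CPM under DMSO, 101, 59.8 and 101 under NAE 18:2 and 191, 262 and 243 under NAE 18:3, with a log2 rise of 1.54 under NAE 18:3 (SE 0.20, adjusted p = 0.000528). Replicate 2 was the low library of the NAE 18:2 group for both genes. STP1 was at 28.9, 27.2 and 32.2 CPM under DMSO and 39.4, 50.3 and 50.9 under NAE 18:3, a difference of 0.67 on the log2 scale that passed the adjusted p (0.00353) but not the fold threshold.

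Among the vacuolar transporters and ERD6, SWEET2 moved down in cotyledons and ERD6 up. SWEET2 was at 18.2, 19.7 and 25.6 CPM in DMSO cotyledons, 7.41, 12.9 and 11.2 under NAE 18:2 and 5.65, 8.11 and 7.10 under NAE 18:3, with neither treated group reaching the controls. It fell by 1.61 on the log2 scale under NAE 18:3 (SE 0.22, adjusted p = 0.000681), while the value under NAE 18:2, -0.99 (adjusted p = 0.0295), was not called. Same-numbered DMSO and NAE 18:2 libraries were taken as paired here, from the data alone. The SWEET2 values above came from the fit without a replicate block. With the replicate as a block the SWEET2 value was -1.01 with an adjusted p of 0.00819, which passes. ERD6 stood at 87.5, 103 and 97.6 CPM under DMSO, 102, 94.5 and 77.8 under NAE 18:2 and 231, 195 and 215 under NAE 18:3. It rose by 1.15 under NAE 18:3 (SE 0.12, adjusted p = 0.000113) and was near the control level under NAE 18:2 (log2 -0.05). SWEET16 and SWEET17 had log2 values of -1.43 (adjusted p = 0.0348) and -0.84 (0.0187) under NAE 18:3 and were not called.

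In NAE 18:2-treated cotyledons 1 of the 10 members was thus called higher and 0 lower, against 0.617% and 0.108% of 19444 genes. At an unadjusted p under 0.05, 4966 of all genes passed there. In NAE 18:3-treated cotyledons 5 members were higher and 1 lower, against 6.33% and 2.49% of the same genes, and the median log2 fold change of the members was 0.83 against -0.02 over all genes. The direct contrast of NAE 18:3 with NAE 18:2, fitted without a replicate block, called 3 members higher and 0 lower, against 3.91% and 0.417%. The 3 were STP13 (by 1.79 on the log2 scale), STP4 (1.38) and ERD6 (1.20). STP4 lost its call without NAE 18:3 cotyledons replicate 2 (adjusted p = 0.0114), and STP13 without replicate 1 or 2 of that group (at most 0.0105). SUC2 (0.67, 95% interval 0.42 to 0.92) and STP1 (0.92, 0.63 to 1.20) passed the adjusted p only. The interval for SWEET11 ran from -0.09 to 0.58 and that for SWEET17 from -0.71 to 0.29, both including 0.

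**Figure D2:**
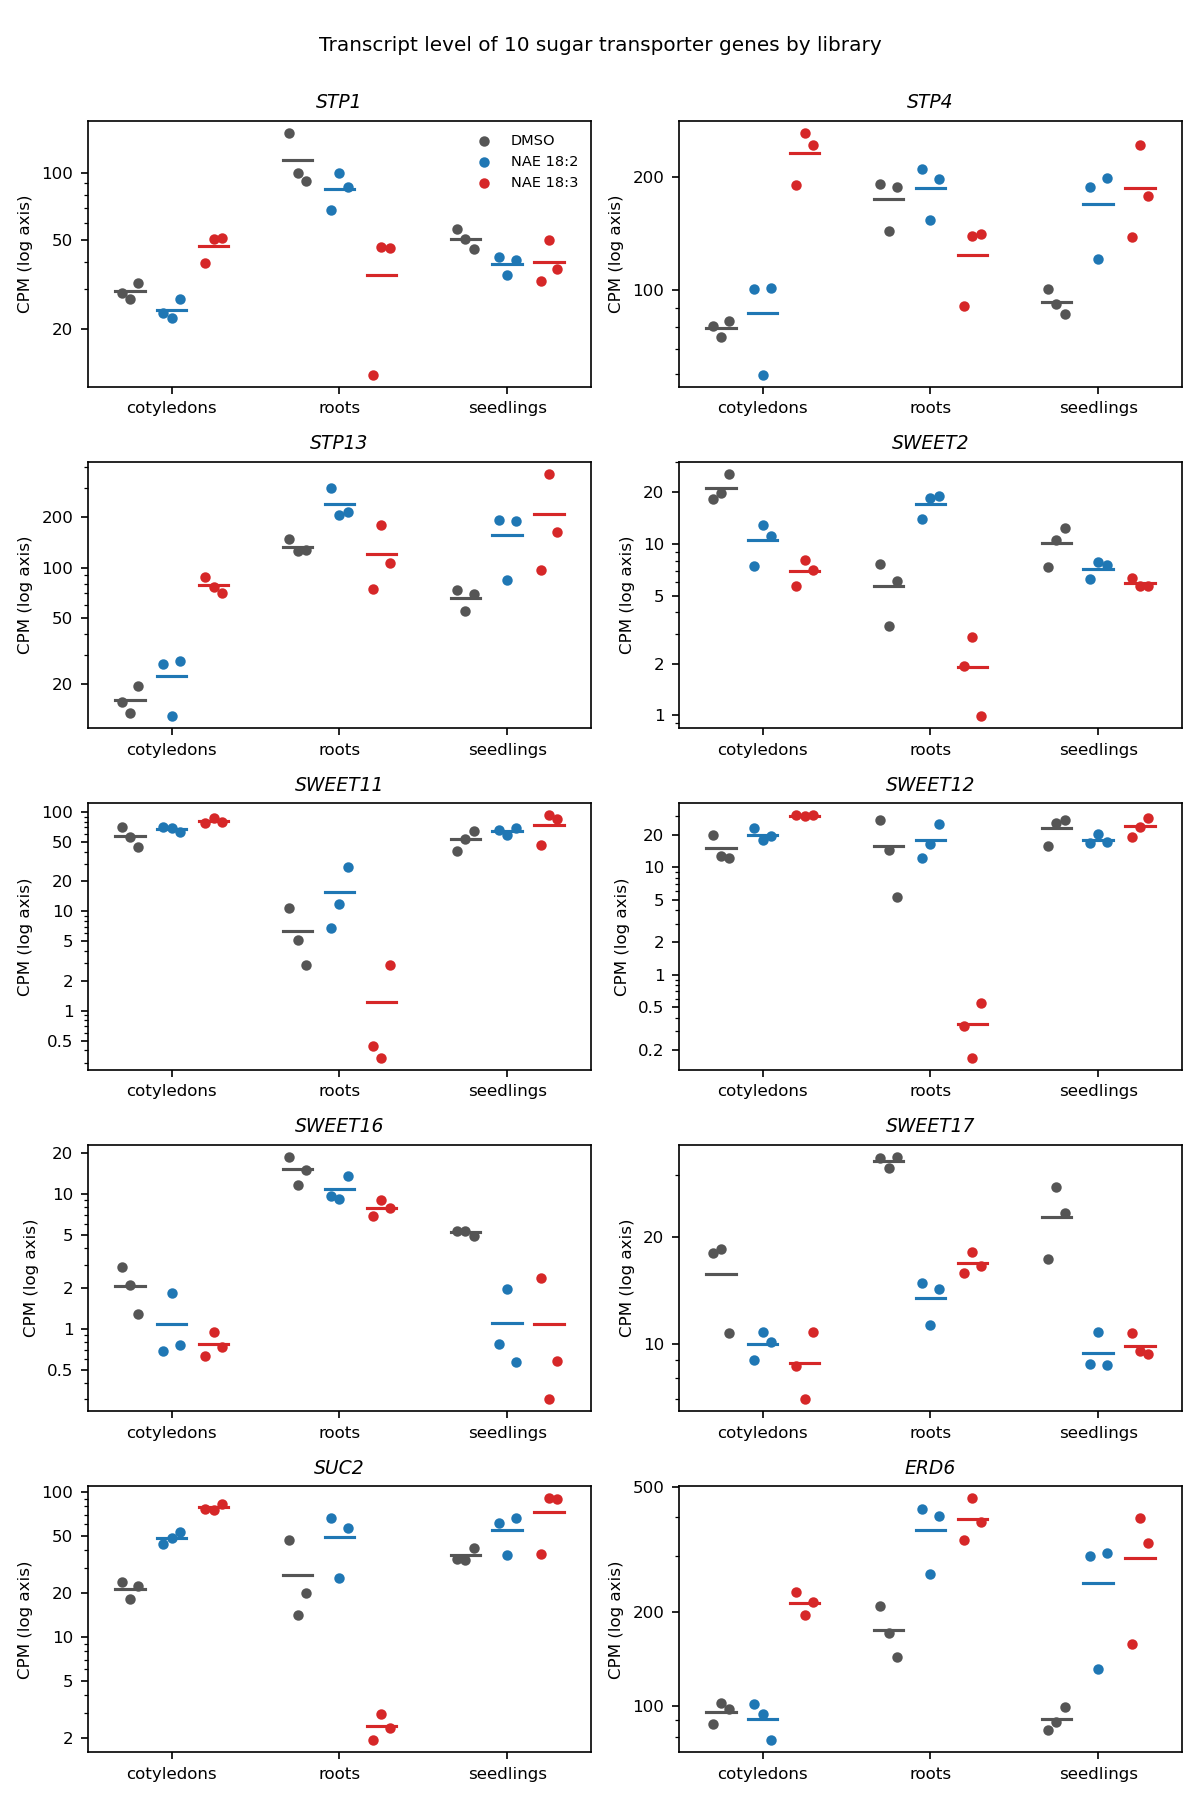
CPM of each gene in all 27 libraries on a log axis, by organ, under DMSO (grey), NAE 18:2 (blue) and NAE 18:3 (red), with points for libraries and a line for the mean of 3. SUC2 and SWEET12 stand above the controls in NAE 18:3 cotyledons and far below them in NAE 18:3 roots.

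In roots SUC2 and SWEET12 fell under NAE 18:3. SUC2 was at 46.7, 14.2 and 20.0 CPM in DMSO roots, 66.2, 25.5 and 56.4 under NAE 18:2 and 1.94, 2.95 and 2.37 under NAE 18:3. The NAE 18:3 libraries all lay far below the lowest control, and the fall was 12.6-fold (log2 -3.65, SE 0.53, adjusted p = 0.000512). SWEET12 was at 27.8, 14.4 and 5.28 CPM in DMSO roots, 12.2, 16.5 and 25.3 under NAE 18:2 and 0.336, 0.170 and 0.544 under NAE 18:3, the last from counts of 9, 5 and 11. Its fall was 53.6-fold (log2 -5.74, SE 0.73, adjusted p = 0.000265), resting on few reads in the treated group and on controls that themselves differed widely. SWEET11 was at 10.9, 5.13 and 2.89 CPM under DMSO and 0.447, 0.340 and 2.92 under NAE 18:3, where replicate 3 overlapped the controls. Its log2 value of -2.64 was not called (adjusted p = 0.0291), and without that library, the one with the raised photosynthesis markers, it was -4.17 with an adjusted p of 0.00677. SWEET12 and SUC2 kept their calls when any 1 library was left out. Under NAE 18:2 none of the 3 was called, with log2 values of 0.81 for SUC2 (SE 0.45), 0.13 for SWEET12 (SE 0.51) and 1.25 for SWEET11 (SE 0.76).

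In roots under NAE 18:3, phloem markers moved with these genes. Summed CPM of 6 phloem markers was 153, 61.7 and 84.1 in DMSO roots, 125, 87.0 and 120 under NAE 18:2 and 24.3, 25.8 and 22.5 under NAE 18:3, so the NAE 18:3 group lay apart. Of the 6, SEOR1 (log2 -2.98), NAKR1 (-2.17), PP2-A1 (-4.43) and AHA3 (-2.69) fell under NAE 18:3, whereas APL, a phloem identity factor, had a value of -0.82 and the callose synthase CALS7 -0.99, and none was at 0 in all 3 libraries. Markers of other root cells went the same way, with 5 of 6 called lower and a summed CPM of 74.4 to 83.3 against 303 to 482 in DMSO roots. The root hair gene EXPA7 (-6.12) and the endodermal CASP1 (-5.81) were among them, and SCR, an endodermal regulator, was at -0.26. In NAE 18:3 cotyledons the phloem sum was 143 to 153 CPM against 77.1 to 122 in DMSO cotyledons, and 0 of the 6 were called, though AHA3 (0.71, adjusted p = 0.000967) and PP2-A1 (0.65, 0.00975) passed the adjusted p. In NAE 18:2 cotyledons, where SUC2 rose, the phloem sum was 103 to 120 CPM, within the range of DMSO cotyledons, and 0 of the 6 were called. What part the marker shifts have in the SUC2 and SWEET12 values was not tested.

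**Figure D3:**
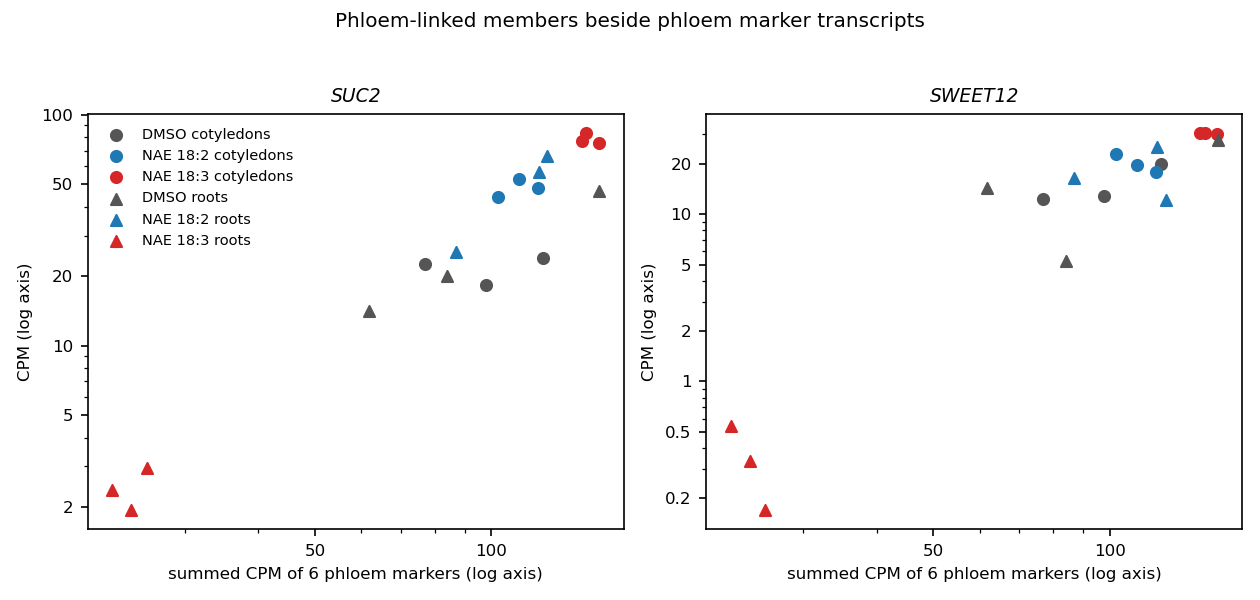
CPM of SUC2 (left) and SWEET12 (right) against the summed CPM of 6 phloem markers in the 18 cotyledon (circles) and root (triangles) libraries, both axes logarithmic, with colours for treatment. The NAE 18:3 roots lie apart at the lower left, with marker sums of 22.5 to 25.8 CPM, and the NAE 18:3 cotyledons at the upper right.

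None of the 3 importers was called higher in NAE-treated roots. STP1 was at 152, 101 and 92.4 CPM in DMSO roots, 68.4, 99.7 and 86.5 under NAE 18:2 and 12.4, 46.5 and 45.9 under NAE 18:3, where replicate 1 was lowest and no library reached the controls. STP1 fell by 1.91 under NAE 18:3 (SE 0.45, adjusted p = 0.00582), but the adjusted p went up to at most 0.0241 and the call was lost without any 1 of the DMSO libraries or without NAE 18:3 roots replicate 3. STP4 was at 192, 144 and 188 CPM under DMSO and 91.1, 139 and 141 under NAE 18:3 (log2 -0.68, adjusted p = 0.0135). STP13 was at 148, 125 and 127 CPM under DMSO, 300, 208 and 215 under NAE 18:2 and 74.6, 181 and 107 under NAE 18:3, so the NAE 18:2 libraries lay above the controls and the NAE 18:3 libraries on both sides of them. Its log2 value was 0.79 under NAE 18:2 (adjusted p = 0.0625) and -0.33 under NAE 18:3 (0.354), neither of them called.

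Of the vacuolar genes, SWEET17 fell in roots under both NAEs and SWEET16 under NAE 18:3. SWEET17 was at 33.4, 31.5 and 33.8 CPM in DMSO roots, 14.9, 11.4 and 14.3 under NAE 18:2 and 15.8, 18.2 and 16.7 under NAE 18:3, with both treated groups well under the narrow control range. It fell by 1.34 under NAE 18:2 (SE 0.11, adjusted p = 0.000153) and by 1.15 under NAE 18:3 (SE 0.11, adjusted p = 5.45e-05), and each call held without any 1 library. SWEET16 was at 18.9, 11.8 and 15.1 CPM under DMSO, 9.60, 9.23 and 13.6 under NAE 18:2 and 6.90, 8.96 and 7.81 under NAE 18:3. It fell by 1.14 under NAE 18:3 (SE 0.21, adjusted p = 0.00154), and without DMSO roots replicate 1 the value was -0.92, under the fold threshold.

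SWEET2 fell under NAE 18:3 alone, and ERD6 rose under NAE 18:2. SWEET2 was at 7.63, 3.32 and 6.08 CPM in DMSO roots, 14.1, 18.5 and 19.0 under NAE 18:2 and 1.94, 2.85 and 0.989 under NAE 18:3, a group above the controls and a group below them. The fall of 1.71 under NAE 18:3 was called (SE 0.39, adjusted p = 0.00539), while the value of 1.55 under NAE 18:2 missed the threshold (SE 0.37, adjusted p = 0.0129). The NAE 18:3 call was lost without DMSO roots replicate 1 or 3 or NAE 18:3 roots replicate 1 or 3 (adjusted p at most 0.0238). ERD6 was at 208, 171 and 144 CPM under DMSO, 423, 264 and 404 under NAE 18:2 and 338, 459 and 385 under NAE 18:3, where every treated library lay above every control. Its values were 1.00 under NAE 18:2 (SE 0.20, adjusted p = 0.00593), called, and 0.99 under NAE 18:3 (SE 0.20, adjusted p = 0.00263), just under the fold threshold. Both sit at that threshold, and leaving out 1 library moved them between 0.90 and 1.18, with the NAE 18:2 call lost without DMSO roots replicate 2 or 3 or NAE 18:2 roots replicate 1 or 3.

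Of the 10 members, 1 was called higher (ERD6) and 1 lower (SWEET17) in NAE 18:2-treated roots, against 5.68% and 3.03% of 20138 genes. In NAE 18:3-treated roots 0 were higher and 6 lower, against 5.94% and 16.8%, and the median log2 fold change of the members was -1.43 against 0.00 over all genes. Without DMSO roots replicate 1, in which SUC2, SWEET12 and the phloem markers were highest, 3 members were called lower (SWEET12, SWEET17 and SUC2). At an unadjusted p under 0.05, 12689 of all genes passed in that comparison. Against NAE 18:2, NAE 18:3-treated roots had 0 members higher and 4 lower, against 1.91% and 15.3%. These were SWEET12 (-5.87), SUC2 (-4.47), SWEET11 (-3.89) and SWEET2 (-3.26), and SWEET11 lost its call without replicate 2 or 3 of the NAE 18:2 roots or replicate 1 or 2 of the NAE 18:3 roots (adjusted p at most 0.0265). For ERD6 the difference between the NAEs was -0.01 (95% interval -0.46 to 0.43) and for SWEET17 0.19 (-0.06 to 0.44).

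**Figure D4:**
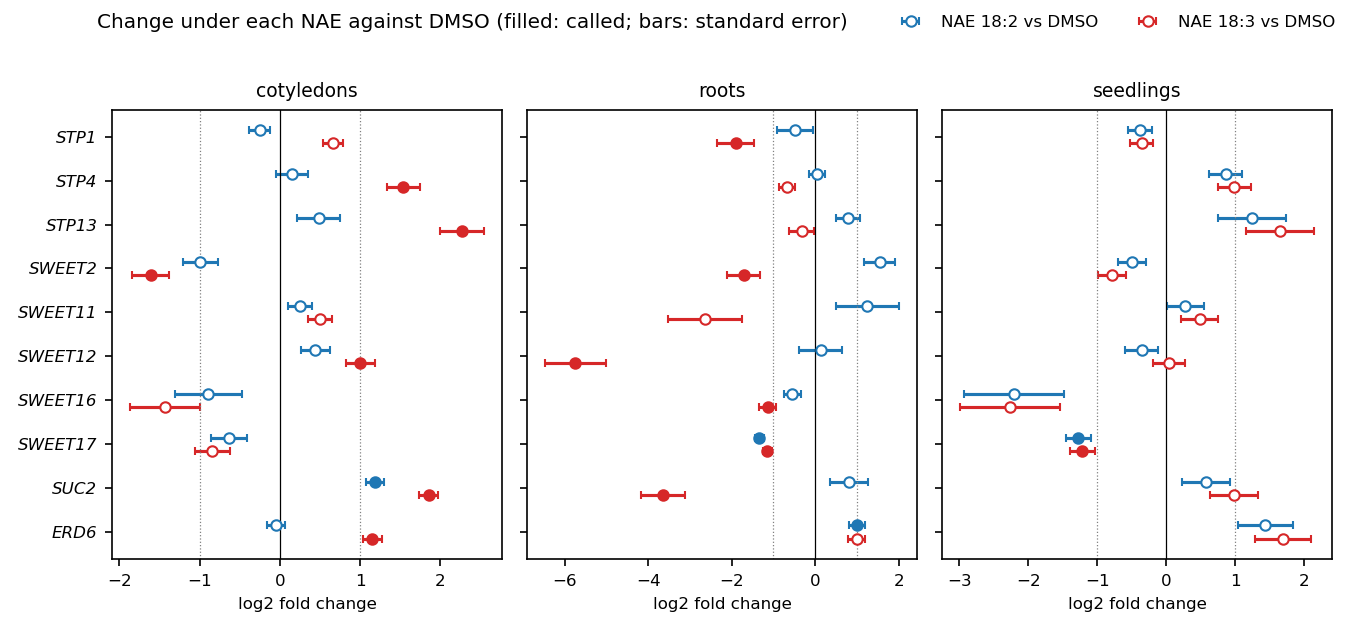
Log2 fold change of each gene against DMSO, with the standard error, in cotyledons, roots and whole seedlings under NAE 18:2 (blue) and NAE 18:3 (red), where filled symbols are called and dotted lines mark the fold threshold. Under NAE 18:3, 5 members are called on the right in cotyledons and 6 on the left in roots, with SWEET12 farthest at -5.74, while SWEET11 in roots (-2.64) is past the line but not called.

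The difference between the organs was tested by an interaction contrast over all 27 libraries. Under NAE 18:3, 6 of the 10 members responded significantly lower in roots than in cotyledons and 0 higher, against 9.86% and 5.56% of 21643 genes. These were SWEET12 (-6.59, SE 0.67, adjusted p = 5.40e-07), SUC2 (-5.35, SE 0.58, adjusted p = 9.92e-07), SWEET11 (-3.00, adjusted p = 0.00494), STP13 (-2.44, 0.00182), STP1 (-2.42, 0.000209) and STP4 (-2.06, 6.45e-05). The sucrose loaders and the monosaccharide importers thus made up the group, with none of the vacuolar genes. For SWEET11 the call was lost without DMSO cotyledons replicate 2 or 3, DMSO roots replicate 1, NAE 18:3 cotyledons replicate 2 or NAE 18:3 roots replicate 1 or 2 (adjusted p at most 0.0257). The median difference over all genes in this contrast was 0.13. For SWEET2, SWEET16, SWEET17 and ERD6 the differences were 0.05, 0.46, -0.15 and 0.00, with intervals of -0.87 to 0.97 for SWEET2, -1.05 to 1.96 for SWEET16, -0.70 to 0.40 for SWEET17 and -0.89 to 0.89 for ERD6.

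Under NAE 18:2, 1 member responded higher in roots and 0 lower, against 1.92% and 1.01%. It was SWEET2, with a difference of 2.59 on the log2 scale (SE 0.41, adjusted p = 0.000647), from values of opposite sign in the organs (-0.99 in cotyledons and 1.55 in roots). Every NAE 18:2 cotyledon library lay below its controls and every NAE 18:2 root library above them.

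**Figure D5:**
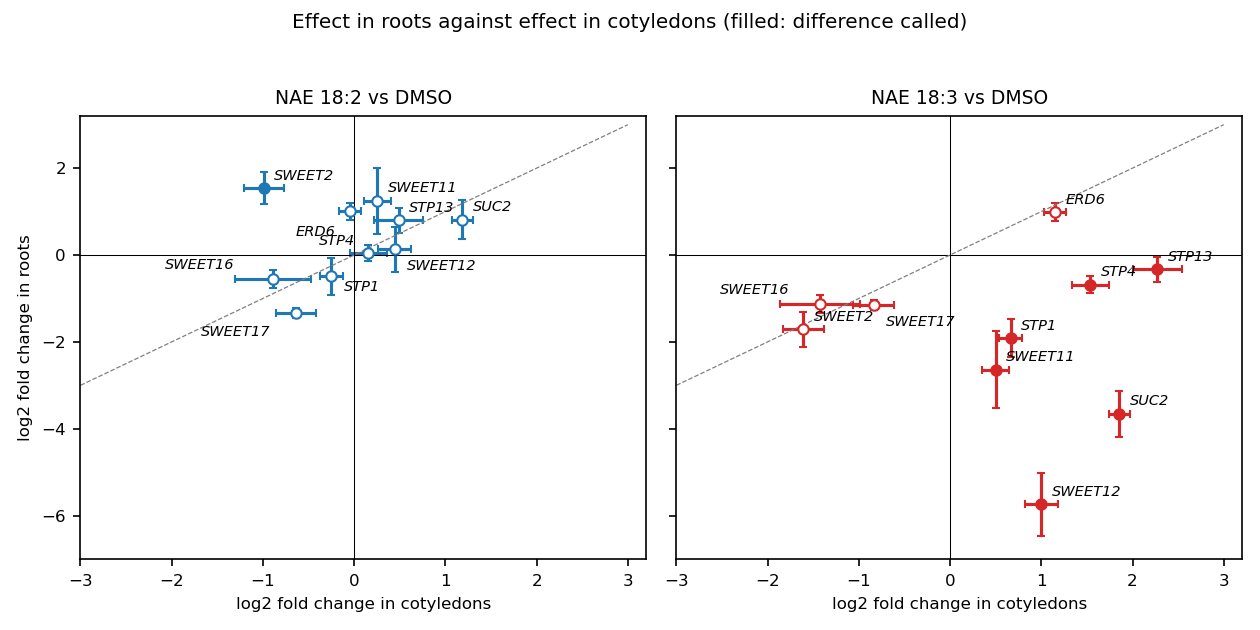
Log2 fold change in roots against that in cotyledons, with standard errors, under NAE 18:2 (left) and NAE 18:3 (right), where the dashed line marks equal change and filled symbols a called difference between organs. Under NAE 18:3 the loaders and importers fall below the line, SWEET12 at 1.00 and -5.74, while SWEET2, SWEET16, SWEET17 and ERD6 stay near it.

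In whole seedlings the replicates varied more. ERD6 was at 83.9, 88.7 and 99.6 CPM under DMSO, 300, 132 and 307 under NAE 18:2 and 157, 398 and 332 under NAE 18:3, so that every treated library was above the controls but replicate 2 was low under NAE 18:2 and replicate 1 under NAE 18:3. STP13 followed the same layout, with 73.2, 55.2 and 69.1 CPM under DMSO, 194, 84.5 and 190 under NAE 18:2 and 97.0, 364 and 164 under NAE 18:3. STP4, with 101, 92.2 and 86.5 CPM under DMSO, 188, 122 and 199 under NAE 18:2 and 138, 243 and 178 under NAE 18:3, also lay above its controls throughout. Log2 values under NAE 18:3 were 1.69 for ERD6 (adjusted p = 0.0261), 1.65 for STP13 (0.0466) and 0.99 for STP4 (0.0283), and none was called.

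SWEET17 was the member called in seedlings. It was at 17.4, 27.7 and 23.5 CPM under DMSO, 8.81, 10.8 and 8.71 under NAE 18:2 and 10.8, 9.59 and 9.36 under NAE 18:3, with no overlap. It fell by 1.28 under NAE 18:2 (SE 0.18, adjusted p = 0.00969) and by 1.22 under NAE 18:3 (SE 0.18, adjusted p = 0.0082), both close to the threshold. The NAE 18:2 call held only without NAE 18:2 seedlings replicate 2, and the NAE 18:3 call only without NAE 18:3 seedlings replicate 1 (adjusted p at most 0.0553). With NAE 18:2 replicates 1 and 3 summed into 1 sample, the NAE 18:2 value was -1.19 with an adjusted p of 0.0525. Genes with root-enriched transcripts took a share of 3.29% to 3.88% of CPM in DMSO seedlings, 2.37% to 3.64% under NAE 18:2 and 2.26% to 2.97% under NAE 18:3. Summed CPM of the 6 root markers was 179 to 195 in DMSO seedlings, 56.5 to 104 under NAE 18:2 and 46.4 to 84.9 under NAE 18:3, without overlap with the controls, and 0 of the 6 were called under either NAE. With the root-gene share as a covariate the SWEET17 values were -1.11 (adjusted p = 0.087) and -1.03 (0.0694). The same share was 11.2% to 14.1% in dissected DMSO roots and 6.5% to 8.3% in NAE 18:3 roots, so it is not a measure of root tissue alone. What part root content has in the SWEET17 values was not tested. SWEET16, the close relative of SWEET17, was at 5.34, 5.33 and 4.90 CPM under DMSO, 0.777, 1.97 and 0.572 under NAE 18:2 and 2.37, 0.303 and 0.576 under NAE 18:3, with log2 values of -2.21 (adjusted p = 0.0908) and -2.26 (0.0567).

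SUC2 was at 34.4, 34.2 and 41.5 CPM in DMSO seedlings, 61.5, 37.1 and 66.1 under NAE 18:2 and 37.7, 90.9 and 90.2 under NAE 18:3. The treated groups overlapped the controls through replicate 2 and replicate 1 respectively, and the log2 values of 0.58 (adjusted p = 0.279) and 0.98 (0.0733) were not called. SWEET12, which fell in NAE 18:3 roots, had a seedling value of 0.04 under NAE 18:3 (SE 0.23), and STP1 one of -0.36 (SE 0.17). SWEET2 (-0.79, adjusted p = 0.03) and SWEET11 (0.49, 0.201) were not called either.

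In seedlings 0 members were called higher and 1 lower under each NAE, against 0.674% higher and 0.206% lower of 20911 genes for NAE 18:2 and 1.28% and 0.631% for NAE 18:3. At an unadjusted p under 0.05, 6453 genes passed under NAE 18:2 and 8565 under NAE 18:3, and DESeq2 called 1 member higher under NAE 18:2 (ERD6) and 3 under NAE 18:3 (STP4, STP13 and ERD6), with 2 lower there (SWEET16 and SWEET17). DESeq2 also called many more of all genes than edgeR, 1405 against 141 higher under NAE 18:2, and 1821 against 268 higher and 990 against 132 lower under NAE 18:3. The direct contrast of the NAEs called 0 members and 0 of all genes in either direction by edgeR (0.00% and 0.00%), with 690 genes at an unadjusted p under 0.05, and DESeq2 called 0 genes higher and 27 lower. Leaving out NAE 18:3 seedlings replicate 1, edgeR called 3 members higher under NAE 18:3 (STP4, ERD6 and SUC2) and 2 lower (SWEET16 and SWEET17). That fit called 1658 of all genes higher and 528 lower.

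Levels of some members ran together over the 27 libraries. SUC2 and SWEET12 had a Pearson correlation of 0.91 on the log2(CPM + 1) scale, SWEET11 and SWEET12 of 0.85, STP13 and ERD6 of 0.81 and SWEET16 and SWEET17 of 0.80. Among 14929 genes the one most like both SWEET12 (0.96) and SUC2 (0.95) was PP2-A1, which encodes a phloem lectin, followed for SWEET12 by the proton pump gene AHA3 (0.95) and for SUC2 by AT1G64370 (0.95). ERD6 was most like AT1G13210 (0.98) and VPS60.1 (0.98), STP13 like AT4G34180 (0.98) and HSF4 (0.97), and SWEET11 like NRP1 (0.96) and AT4G38950 (0.96). SWEET16 was most like AT2G24170 (0.97) and LRX2 (0.97), and SWEET17 like CBR (0.91) and AT2G22122 (0.90). The values for the other members were for STP1 with AT2G42350 (0.91) and AAP7 (0.89), for STP4 with AT4G03460 (0.90) and MYB7 (0.90) and for SWEET2 with AT3G61260 (0.88) and SHV3 (0.88). The points share 9 groups and 3 organs, so these values describe a common pattern over conditions and organs only.

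Among the contrasts of an NAE with DMSO, most calls for other sugar transporters and sucrose-cleaving enzymes were in NAE 18:3-treated roots. In NAE 18:3-treated roots 9 of 17 tested ERD6-like genes were called lower and 0 higher, with a median log2 fold change of -1.42 against 0.00 over all genes. SFP1 fell from 35.7 ± 9.19 to 4.42 ± 2.36 CPM (log2 -3.21, SE 0.39, adjusted p = 0.000213) and AT3G05165 from 70.8 ± 14.4 to 12.3 ± 1.59 (log2 -2.71, SE 0.17, adjusted p = 1.01e-05). Invertases and sucrose synthases, the enzymes that cleave sucrose, had 6 of 11 lower and 0 higher, among them SUS5 (-2.00) and the vacuolar invertase AT1G62660 (-1.41). Of 7 tonoplast and plastid carriers 2 were lower, AT5G17010 (-1.60) and TMT2 (-1.35), as were 1 of 4 other SUC genes, SUC1 (-1.12), 2 of 4 other SWEET genes (SWEET3 and SWEET13, chosen after their values were seen) and 0 of 2 other STP genes. SWEET3 (from 1.27 ± 1.19 to 0.0113 CPM) and SWEET13 (from 1.25 ± 0.385 to 0.0917) were near the floor. The background there was 16.8% lower and 5.94% higher.

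In NAE 18:2-treated roots, 2 of 17 ERD6-like genes fell, AT5G18840 (-1.79) and AT1G19450 (-1.36), the sucrose synthase gene SUS3 rose by 2.07, the vacuolar invertase ATBETAFRUCT4 fell by 1.08 and 1 of 4 other SUC genes rose (SUC7, named after its value was seen). In NAE 18:3-treated cotyledons 2 of 16 ERD6-like genes rose and 2 fell, with AT1G08900 up by 1.74 and AT1G19450 down by 1.62, and 1 of 5 other SUC genes rose, again SUC7. SUC7 was near the floor, at 0.589 CPM in those roots and 1.46 ± 0.94 CPM in those cotyledons, with no count in the DMSO libraries of either organ. Over all genes, 5.68% were higher and 3.03% lower in those roots, and 6.33% higher and 2.49% lower in those cotyledons. In NAE 18:2-treated cotyledons and in seedlings under either NAE, 0 genes of these 6 lists were called by edgeR.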

How the data were processed

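The authors trimmed reads with Trimmomatic and aligned them to TAIR10 with STAR. The program and annotation behind the counts, and use of strand, are not given in the sources used here. The deposited table holds whole-number counts per gene without normalization, and the second deposited table, the same counts divided by size factors, was not used.

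Each organ had its own edgeR 4.0.16 model of 9 libraries (R 4.3.3, TMM, filterByExpr, robust quasi-likelihood) holding treatment alone, and organ contrasts came from a model of all 27 libraries. Adjusted p-values are Benjamini-Hochberg values over all genes tested. Calls used the study's thresholds, an adjusted p under 0.01 and a fold change over 2. Fold changes come from these fits and can differ from ratios of CPM, enough to decide calls near the fold threshold. The fits within an organ took TMM factors over its 9 libraries, while CPM used factors over all 27. In NAE 18:3 roots against DMSO roots, mean CPM was 16.9 against 32.9 for SWEET17 and 7.89 against 15.2 for SWEET16. These ratios are under 2-fold, while the fit called both genes lower. For ERD6 mean CPM was 394 against 174, over 2-fold, and the fit value of 0.99 was not called. In each of these genes the fit placed NAE 18:3 roots lower, relative to DMSO roots, than the CPM ratio did. The scripts were tested on simulated counts. Alternatives were upper quartile scaling, DESeq2 1.42.0, no filter, other sets of libraries, each library left out, a replicate block, summed near-equal replicates and a root-share covariate. Root-enriched genes were the 2927 that exceeded cotyledons by at least 4-fold among DMSO roots.

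Members and lists were chosen with earlier results of these data known. Named genes were all 10 members, for each the 2 genes of highest correlation among those averaging 5 CPM or more, and from each list at most the 2 called genes with the largest change per organ and NAE that averaged 1 CPM or more. Same-numbered libraries deviated together in DMSO and NAE 18:2 cotyledons (correlations of 0.46, 0.16 and 0.34) and between cotyledons of the NAEs (0.17, 0.22 and 0.21). They were taken as paired there, from the data alone, but the main fits held no replicate block. Values and calls given for those contrasts are therefore unpaired, except where a block is named. Labels do not say whether replicates were separate cultures, so p-values measure the spread between these libraries. Treatment lasted 1 h in the labels and up to a few hours in the paper.

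Locus identifiers were matched to TAIR10.1, whose assembly differs in name from the authors' build, for 32548 of 32833 genes. Sequences were compared with BLAST+ 2.17.0+ and Biopython 1.88.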

Additional observations from a re-analysis of the deposited data

Results flagged for a closer look

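Responses of 7 gene and NAE combinations differed between roots and cotyledons by the interaction contrast in edgeR, each with 3 libraries per group. Under NAE 18:2 the SWEET2 difference, roots minus cotyledons, was 2.59 on the log2 scale. Under NAE 18:3 it was -6.59 for SWEET12, -5.35 for SUC2, -3.00 for SWEET11, -2.44 for STP13, -2.42 for STP1 and -2.06 for STP4. The summed phloem markers in NAE 18:3 roots, 22.5 to 25.8 CPM against 61.7 to 153 in DMSO roots, moved with SWEET12 and SUC2, and their part in these differences was not tested.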

How the results depend on the processing

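In NAE 18:2 cotyledons the 1 member called higher (SUC2) became 0 with only the 6 libraries compared and 0 with all 27 libraries in 1 fit, and 0 to 1 with a library left out. With a replicate block, 1 was called lower there (SWEET2), against 0. In NAE 18:3 cotyledons the 1 lower became 1 to 2 with a library left out, and the 3 higher than NAE 18:2 became 1 with all 27 libraries and 1 to 3 with a library left out, 1 without NAE 18:3 cotyledons replicate 2. In NAE 18:2 roots the 1 higher (ERD6) became 0 with upper quartile scaling, 0 with the replicate block, 2 with only 6 libraries, 2 with all 27, and 0 to 1 with a library left out. In NAE 18:3 roots the 0 higher became 1 (ERD6) with DESeq2, no count filter, only 6 libraries, the replicate block or all 27, and 0 to 1 with a library left out, where the 6 lower ranged from 3 to 6. In NAE 18:2 seedlings the 1 lower (SWEET17) became 0 with upper quartile scaling, only 6 libraries, the replicate block, replicates 1 and 3 summed or the root-share covariate, 2 with all 27, and 0 to 1 with a library left out, and the 0 higher became 1 with DESeq2 or all 27. In NAE 18:3 seedlings the 0 higher became 3 with DESeq2, 3 with all 27 and 0 to 3 with a library left out, and the 1 lower became 2 with DESeq2 or all 27, 0 with only 6 libraries, the replicate block or the covariate, and 0 to 2 with a library left out. The cause of these shifts was not tested. Shifts that changed a count only by a small ratio are not listed here. The 6 lower in NAE 18:3 roots may therefore also have shifted under alternatives other than leaving a library out. Among them, SWEET16 (7.89 against 15.2) and SWEET17 (16.9 against 32.9) were under 2-fold in mean CPM scaled over all 27 libraries. With all 27 libraries in 1 fit, 6 calls of single members were lost over the contrasts within organs. No called value changed sign under any alternative, and counts for the organ contrast and both interaction contrasts moved by at most 1 member. Among comparisons taken as paired, the only shift listed for the replicate block was SWEET2 in NAE 18:2 cotyledons. Over all contrasts, the replicate block lost 6 calls of single members and gained 2. Not all of the lost calls are named here, so others may lie in the paired comparisons. Elsewhere libraries were not taken as paired, since not every same-numbered pair had a correlation over 0.1. Between DMSO and NAE 18:3 cotyledons the correlations were 0.080, 0.087 and 0.083, so whether replicate numbers pair those libraries is unknown. Few counts limit SWEET12 in NAE 18:3 roots (5 to 11 per library).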
